A study of Canis lupus familiaris with 5 samples.

Results

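The genes described here are the machinery of DNA replication and of mitosis, measured in nuclei of canine cephalic vein before and 24 h after the vein was placed as an arterial bypass. They were taken from a list of 43 gene symbols, matched to the names of the deposited features after a trailing version number had been removed. Of these, 41 were present among 35531 gene features, 26 of 28 S phase genes and 15 of 15 mitotic genes. MCM7 and POLA1 had no feature of that name and are not analysed here. All 41 had at least 30 unique molecular identifiers (UMIs, 1 per captured transcript) over the 5 libraries, and the question set was whether cells of the graft had entered the cell cycle by that time.

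The graft was a cephalic vein segment of dog 1 that had been distended with saline holding papaverine and bivalirudin, sewn to the carotid artery under systemic bivalirudin and taken after 24 h. The distended segments of dogs 1 and 2 had the same saline distension and were frozen about 30 min after harvest, without exposure to arterial flow. The control segments of dogs 1 and 2 were not distended. Both animals were male mongrels of about 25 kg and were operated under general anaesthesia. There were thus 1 grafted, 2 distended and 2 control libraries of single-nucleus RNA-seq from snap-frozen tissue. The grafted group is 1 vein of 1 animal, so it has no replicate of its own.

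A dividing cell passes a G1 checkpoint at which cyclins and their kinases release E2F transcription factors, which switch on the genes of DNA replication. The MCM helicase is loaded on origins in G1 by CDC6 and CDT1 and is activated in S phase. Mitotic genes such as MKI67, TOP2A and CCNB1 follow later, in G2 and mitosis, and S phase transcripts can therefore precede them in cells that enter the cycle from rest. In a healthy vein endothelial cells, smooth muscle cells and fibroblasts are mostly at rest, while growth of the wall in vein grafts involves their division. Nuclear RNA holds many unspliced transcripts, so its counts depend on gene structure as well as on expression, and they are not per gene length. Genes are therefore compared here between libraries and not ranked against each other by level.

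After barcodes with under 100 detected genes were removed, 6855 nuclei remained, 2705 grafted, 2108 and 241 distended, and 765 and 1036 control nuclei; pairs of values are given here with dog 1 before dog 2. Depth differed widely, with a median of 2350 UMIs per nucleus in the graft, 545.5 and 498 in the distended veins and 424 and 274 in the control veins. Another 4 features, LOC119877772 to LOC119877775, took 2.98% of UMIs in the graft, 38.5% and 26.5% in the distended and 70.4% and 61.4% in the control veins, and all levels below are CPM, the UMIs of a gene among every 1000000 UMIs of the remaining genes of that library or of that class of nuclei. The distended vein of dog 2 stood apart: it was the smallest library, and 36.5% of its nuclei fell into clusters of which the graft held at least 90%, against 8 nuclei of distended dog 1 and 2 and 7 nuclei of the controls. Whether the label of this library or material carried over from the graft plays a part cannot be told from the files, which bears on every level of distended dog 2 and on every distended mean below. All 18 endothelial markers were detected in every library, and their summed level was 5040.0 CPM in the graft, 6184 and 5992 in the distended and 13620.1 and 8235 in the control veins. Fibroblast markers, 14 to 16 of 16 detected, summed to 1563 in the graft, 10915 and 1488 in the distended and 1051 and 5601 in the control veins. Smooth muscle markers, 8 to 12 of 12 detected, summed to 433 in the graft, 1599 and 297 in the distended and 1733 and 1117 in the control veins. Neutrophil markers, 3 to 12 of 12 detected, summed to 804 in the graft, 88.8 and 354 in the distended and 14.01 and 1229 in the control veins. The part of this shifting cell content in the whole-vein levels was not tested, and in such sums fewer cells of a type and less RNA per cell cannot be told apart.

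S phase transcripts were far more abundant in the graft than in either control vein, mitotic transcripts were higher by a smaller factor once DIAPH3 was left aside, and the distended veins of the dogs differed from each other. The 26 S phase genes together held 18045 UMIs in the graft, 751 and 482 in the distended veins and 135 and 96 in the control veins. That was 1656 CPM in the graft (95% Poisson interval 1632 to 1680.0), 501 (466 to 539) and 1724 (1574 to 1885) in the distended veins, and 270.2 (227 to 319.8) and 283 (229 to 345) in the control veins. The graft thus stood at 5.99 times the control mean of 277 ± 8.94 CPM (SD, n = 2), and at 3.30 times the distended vein of its own dog. The distended veins averaged 1113 ± 865 CPM (SD, n = 2), 4.02 times the controls, but the ratio to the same dog's control was 1.86 in dog 1 and 6.10 in dog 2. Distended dog 2 reached the level of the graft, at a ratio of 0.960 for the graft over it. With the 4 dominant features kept in the total, the graft-to-control ratio became 18.2, since these features fill most of the control libraries.

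The 15 mitotic genes together had 3846 UMIs in the graft, 373 and 54 in the distended veins and 42 and 17 in the control veins. That was 353 CPM in the graft, 249 and 193 in the distended veins and 84.1 and 50.1 in the control veins. A single gene, DIAPH3, which encodes a formin that builds actin filaments and acts in cytokinesis and also outside mitosis, supplied 59.6% of these mitotic UMIs in the graft. Its share was 13.9% and 55.6% in the distended and 19.0% and 29.4% in the control veins. DIAPH3 was therefore set apart, a split chosen after its values were seen. Without it the mitotic genes held 142 CPM in the graft (135 to 149.8), 214 (192 to 239) and 85.9 (55.0 to 128) in the distended veins, and 68.1 (47.1 to 95.1) and 35.4 (18.3 to 61.8) in the control veins. The graft then stood at 2.76 times the control mean and at 0.665 of the distended vein of its own dog. That last order rested on few nuclei, since 3 nuclei of distended dog 1 held 126 of its 321 mitotic UMIs outside DIAPH3. Without the 3 nuclei of each library with most of these UMIs, a check added after the data were seen, the graft held 132 CPM (126 to 139.5) and distended dog 1 131 (113 to 150.3), a ratio of 1.01. Such intervals treat UMIs as independent, which UMIs of 1 nucleus are not.

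**Figure D1:**
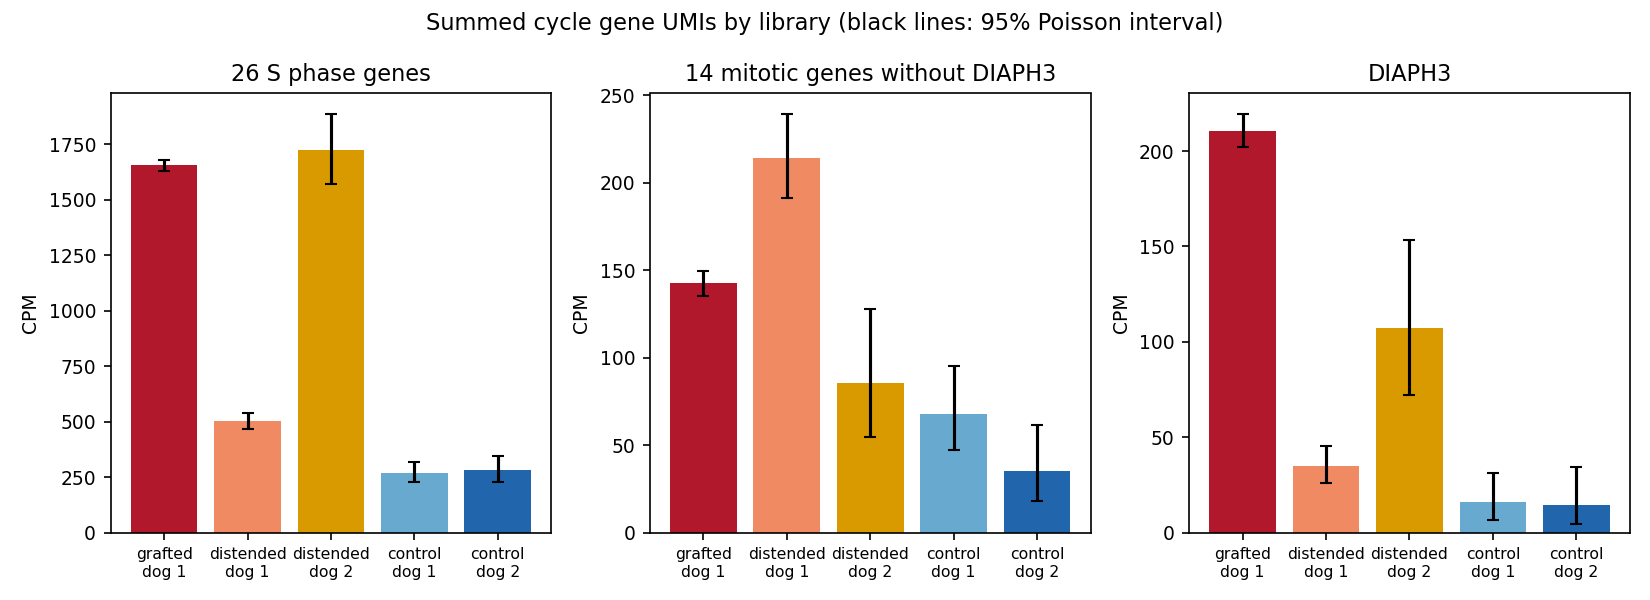
Summed CPM in each library, in 1 panel for the 26 S phase genes, 1 for the mitotic genes without DIAPH3 and 1 for DIAPH3; bars are single libraries and error bars are exact 95% Poisson intervals. S phase levels of 1656 in the graft and 1724 in distended dog 2 stand over 501 in distended dog 1 and 270.2 and 283 in the controls, while without DIAPH3 the highest mitotic level is that of distended dog 1, 3 nuclei of which hold 126 of its 321 UMIs.

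Each of the 26 S phase genes was higher in the graft than in both control veins, as was the case for 48.5% of all 14883 genes with at least 30 UMIs, a floor that a gene could pass through the deep grafted library alone. In distended dog 2, 25 of 26 stood above both controls (background 37.7%), and in distended dog 1 this was 19 of 26 (background 32.2%). Both distended veins lay above both controls for 19 of 26 S phase genes, against 13.9% of all genes. Within the distended group all 26 were higher in dog 2 than in dog 1 (background 47%).

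The genes that load and start the replicative helicase had few transcripts in the control veins. MCM2, MCM3, MCM4, MCM5 and MCM6 encode subunits of the helicase ring. MCM4 held 113 CPM in the graft, 26.7 and 93.0 in the distended veins, and 22.0 and 11.8 in the control veins. MCM6 held 88.6 in the graft, 14.02 and 64.4 in the distended veins, and 28.02 and 8.84 in the control veins. MCM3 held 82.1 in the graft, 9.35 and 107 in the distended veins, and 6.004 and 0 in the control veins. These 3 subunits were high in the graft and distended dog 2 and low in distended dog 1 and the controls, and for MCM6 distended dog 1 lay between the controls. MCM5 held 38.7 in the graft, 4.67 and 64.4 in the distended veins, and 0 and 2.95 in the control veins. MCM2 had 24.7 in the graft, 3.34 and 39.3 in the distended veins, and 2.00 and 0 in the control veins. In UMIs, MCM2 had 269 in the graft against 1 in both controls together, a ratio of CPM of 20.7 whose counting interval ran from 3.69 to 821, and the control side of several of these ratios rests on as few transcripts.

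MCM10, which joins the activated helicase at the fork, had 65.2 CPM in the graft, 12.7 and 50.1 in the distended veins, and 0 and 5.89 in the control veins. CDC6, the loader of the ring, had 42.4 in the graft, 6.01 and 42.9 in the distended veins, and 2.00 and 0 in the control veins. CDT1, its partner in loading, had 9.08 in the graft, 2.67 and 7.15 in the distended veins, and no UMI in either control vein, which with a floor of 3 control UMIs makes it at least 2.54-fold higher in the graft. CDC45 and GINS2 belong to the active helicase complex. CDC45 had 23.1 in the graft, 1.34 and 10.7 in the distended veins, and 4.00 and 0 in the control veins. GINS2 had 17.5 in the graft, 0.668 and 3.58 in the distended veins, and 2.00 and 0 in the control veins. For CDC45 and GINS2 the graft stood above both distended veins as well, while the distended veins held 5 and 2 UMIs in all.

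At the fork itself, PCNA encodes the sliding clamp of the DNA polymerases. PCNA had 114 CPM in the graft, 14.7 and 64.4 in the distended veins, and 24.0 and 20.6 in the control veins, so that distended dog 1 lay below both controls. POLE, the catalytic subunit of a leading-strand polymerase, had 51.1 in the graft, 13.4 and 89.4 in the distended veins, and 18.0 and 11.8 in the control veins. CHAF1A, a chaperone that places histones on new DNA, had 38.4 in the graft, 18.7 and 68.0 in the distended veins, and 12.01 and 8.84 in the control veins. DTL marks CDT1 and other proteins for destruction during replication and requires PCNA for it. DTL had 97.6 in the graft, 8.01 and 68.0 in the distended veins, and 2.00 and 2.95 in the control veins, and its pooled ratio of graft to control of 41.0 (counting interval 11.3 to 339) was the largest of the S phase genes with a control UMI. CLSPN, an adaptor of the replication checkpoint, had 31.9 in the graft, 5.34 and 46.5 in the distended veins, and no UMI in either control vein, at least 8.93-fold higher in the graft.

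Genes of nucleotide supply were also highest in the graft or in distended dog 2. RRM1 and RRM2 are the large and small subunits of ribonucleotide reductase, and RRM2 is the one whose protein level is tied to S phase. RRM2 had 64.8 CPM in the graft, 7.34 and 53.7 in the distended veins, and 4.00 and 0 in the control veins, and RRM1 had 74.4 in the graft, 34.1 and 78.7 in the distended veins, and 28.02 and 29.5 in the control veins. The pooled graft-to-control ratio was 27.2 for RRM2 (counting interval 7.49 to 225) and 2.60 for RRM1. TYMS, thymidylate synthase, had 45.5 in the graft, 12.02 and 17.9 in the distended veins, and 10.0 and 5.89 in the control veins.

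The repair genes that act at stalled forks differed in how far distended dog 1 joined the others. BRIP1, a helicase partner of BRCA1, had 71.6 CPM in the graft, 18.7 and 50.1 in the distended veins, and 0 and 11.8 in the control veins. BRCA1 had 38.9 in the graft, 14.02 and 89.4 in the distended veins, and 0 and 11.8 in the control veins. FANCI, of the Fanconi anaemia pathway for crosslink repair, had 53.6 in the graft, 12.7 and 71.5 in the distended veins, and 14.01 and 5.89 in the control veins. BRCA2, which acts in homologous recombination, was the exception among all 26 genes, with 108 in the graft, 148 and 225 in the distended veins, and 38.0 and 61.9 in the control veins. It was the one S phase gene that was lower in the graft than in distended dog 1, at a ratio of 0.731; the other 25 were higher there, against 58.4% of all genes.

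Among chromatin and cycle regulators, EZH2, the methyltransferase of the Polycomb complex and an E2F target, had 111 CPM in the graft, 21.4 and 82.3 in the distended veins, and 14.01 and 20.6 in the control veins. ATAD2, a chromatin ATPase induced by E2F, had 149.8 in the graft, 75.5 and 168 in the distended veins, and 30.0 and 53.0 in the control veins. HELLS, a remodeller needed for DNA methylation, had 82.1 in the graft, 15.4 and 64.4 in the distended veins, and 4.00 and 5.89 in the control veins. All 3 had the graft and both distended veins above both controls. CCNE2, a cyclin of the G1 to S transition, had 19.2 in the graft, 1.34 and 3.58 in the distended veins, and 6.004 and 2.95 in the control veins. Here distended dog 2 lay below the graft, but its value is 1 UMI. The ratio of graft to distended dog 1 was largest for GINS2 (26.2), CDC45 (17.3), CCNE2 (14.4) and DTL (12.2), the first 3 of which rest on 1 or 2 UMIs in that distended vein.

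**Figure D2:**
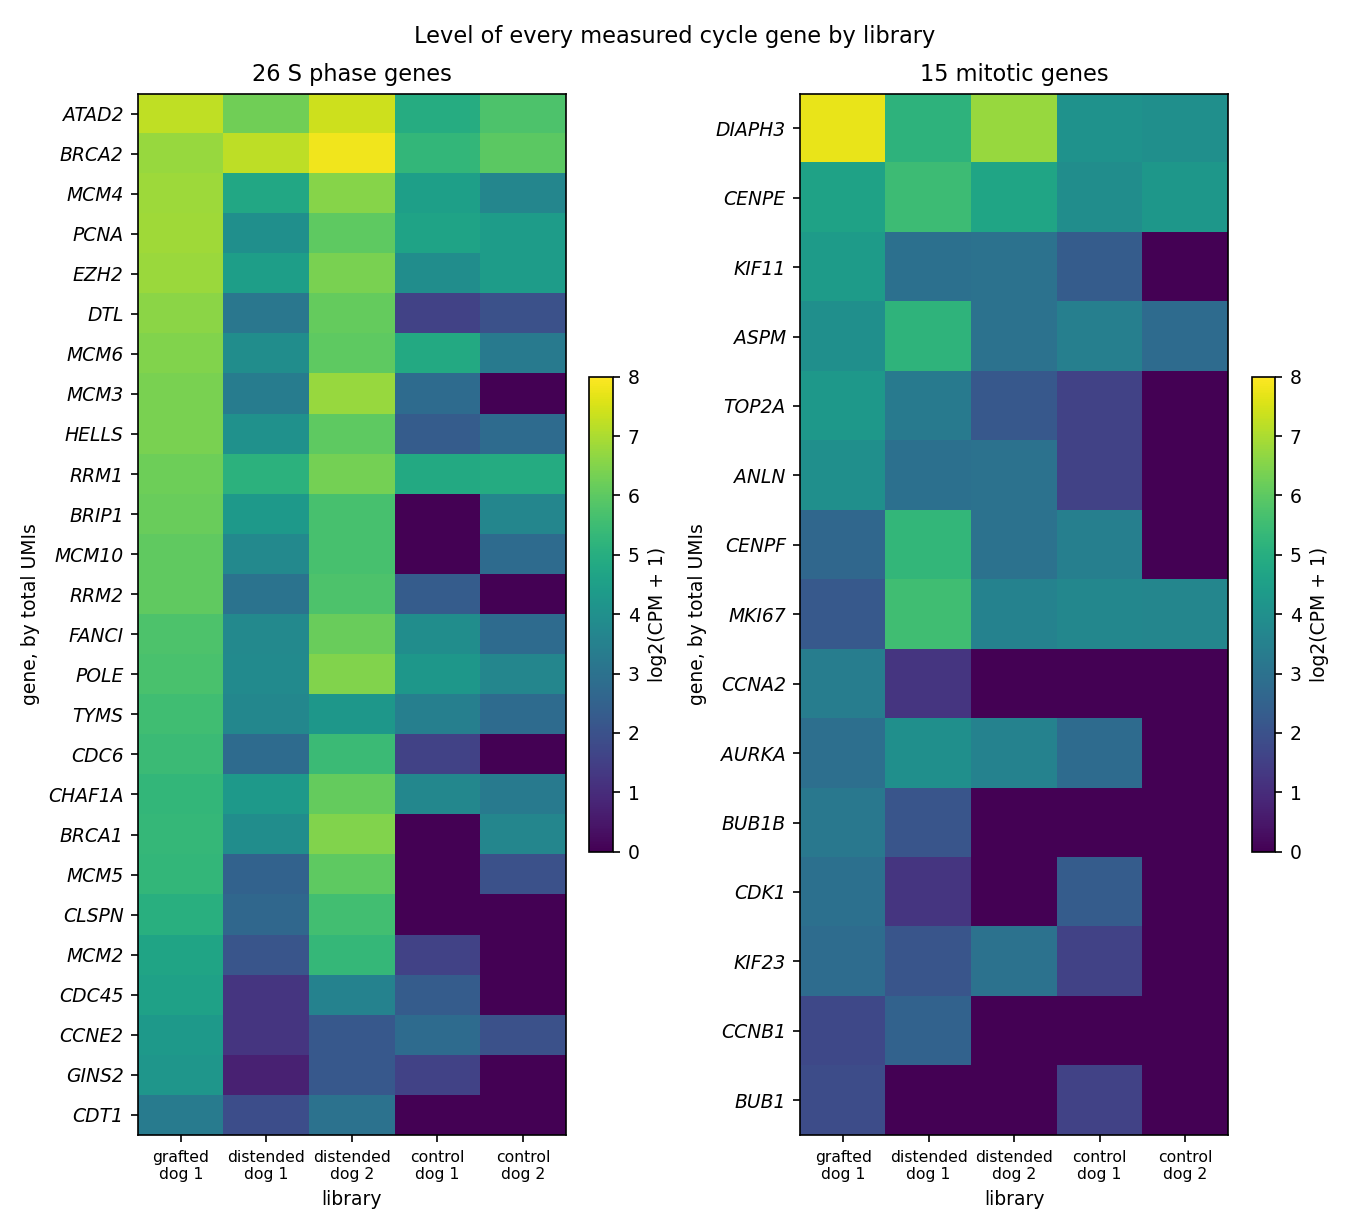
Heat map of log2(CPM + 1) for the 26 S phase genes and the 15 mitotic genes in the 5 libraries. The S phase block is bright in the graft and in distended dog 2 and dim in the controls, whereas MKI67, CENPF and ASPM are brightest in distended dog 1.

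In whole vein, no S phase or mitotic gene passed the test, nor did any other gene. With edgeR's quasi-likelihood test on summed counts, fitted over all 5 libraries and with Benjamini-Hochberg adjustment, 0 of 13170 genes (0%) were called in the grafted against control, distended against control or grafted against distended comparison. The counts at an unadjusted p under 0.05 were 1162, 186 and 725 genes, and DESeq2 called 116, 1 and 32 genes in the same order but no S phase or mitotic gene for the graft. Of the 26 S phase genes, 14 had an unadjusted p under 0.05 and a higher level in the graft than in control vein, against 4.78% of all tested genes. The fitted difference was positive for all 26, with a median of 2.95 on the log2 scale, or 2.64 with genes of 3 control UMIs or fewer set at their bound or pooled ratio, against 0.12 over all genes. EZH2 differed by 2.53 (SE 0.96, adjusted p = 0.559), MCM4 by 2.57 (SE 0.95, adjusted p = 0.559) and PCNA by 2.19 (SE 0.96, adjusted p = 0.564). Of the 15 mitotic genes 13 passed the filter on low counts; 11 of them were positive and 2 negative, with a median of 2.21 (1.42 with bounds), and only DIAPH3 had an unadjusted p under 0.05, at a log2 difference of 3.62 (SE 0.89, adjusted p = 0.556). The number called depended on the distended veins. With either of them left out, some S phase and mitotic genes passed for the graft against control, but so did many other genes. Without the filter on low counts 8 of 41 S phase and mitotic genes passed, beside 287 of all 26765 genes.

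Distended against control vein gave 9 S phase genes with an unadjusted p under 0.05, all higher in distended vein (0.949% of all genes), among them BRCA2, CLSPN, DTL, HELLS and MCM3. BRCA2 differed by 1.81 (SE 0.67) on the log2 scale. The median of the S phase genes was 1.85 (1.77 with bounds) and that of all genes was 0.08. Without distended dog 1 the S phase median was 2.55 and that of all genes -0.03. Without distended dog 2 these medians were 1.15 and -0.0003. Between graft and distended vein no S phase gene had an unadjusted p under 0.05 in either direction, against 2.97% of all genes higher and 2.54% lower in the graft. These 3 comparisons share libraries and are not independent of each other.

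The mitotic genes did not follow one order. MKI67, whose protein coats mitotic chromosomes and marks cycling cells, had 3.67 CPM in the graft, 45.4 and 10.7 in the distended veins, and 12.01 and 11.8 in the control veins. The graft was the lowest of the 5 libraries for MKI67, with 40 UMIs in 2705 nuclei against 68 UMIs in the 2108 nuclei of distended dog 1. The control levels rest on 6 and 4 UMIs. Without the 3 nuclei of each library with most mitotic UMIs outside DIAPH3, MKI67 held 2.87 CPM in the graft. It then held 26.1 and 7.59 in the distended veins and 0 and 2.98 in the control veins, so the graft was no longer the lowest. Nuclei with an MKI67 UMI numbered 27 in the graft, 22 and 3 in the distended veins, and 3 and 2 in the control veins, and 29 of the 68 UMIs of distended dog 1 came from 3 nuclei. CENPF, a kinetochore protein of late G2 and mitosis, had 5.41 in the graft, 38.1 and 7.15 in the distended veins, and 10.0 and 0 in the control veins. ASPM, which focuses spindle poles, had 14.7 in the graft, 36.1 and 7.15 in the distended veins, and 10.0 and 5.89 in the control veins. CENPE, a kinesin that moves chromosomes to the plate, had 23.2 in the graft, 44.1 and 25.0 in the distended veins, and 14.01 and 17.7 in the control veins. For MKI67, CENPF, ASPM and CENPE distended dog 1 was the highest library. The ratio of graft to distended dog 1 was 0.0808 for MKI67, 0.142 for CENPF, 0.407 for ASPM and 0.527 for CENPE. MKI67 was lower in the graft than in the distended veins by a log2 difference of -3.13 (SE 1.30, edgeR adjusted p = 0.906), a difference that did not pass, and pooled over both distended veins its ratio was 0.0919 (counting interval 0.0607 to 0.137).

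AURKA, a kinase of the centrosome, also peaked in distended dog 1, with 6.51 CPM in the graft, 14.7 and 10.7 in the distended veins, and 6.004 and 0 in the control veins. CCNB1, the cyclin that drives entry into mitosis, had 2.29 in the graft, 4.67 and 0 in the distended veins, and no UMI in the controls. Of the remaining mitotic genes all but KIF23 were highest in the graft. TOP2A, which untangles sister chromatids and is made from late S phase on, had 18.4 in the graft, 8.68 and 3.58 in the distended veins, and 2.00 and 0 in the control veins. KIF11, the kinesin that separates spindle poles, had 20.2 in the graft, 6.68 and 7.15 in the distended veins, and 4.00 and 0 in the control veins. ANLN, a scaffold of the cleavage furrow, had 14.9 in the graft, 6.68 and 7.15 in the distended veins, and 2.00 and 0 in the control veins. CCNA2, the cyclin of S phase and G2, had 9.54 in the graft, 1.34 and 0 in the distended veins, and no UMI in the controls, at least 2.67-fold higher in the graft. CCNA2 thus belonged with TOP2A, ANLN and KIF11 in being higher in the graft than in any other library. BUB1B, a spindle checkpoint kinase, had 8.26 in the graft, 3.34 and 0 in the distended veins and none in the controls, at least 2.31-fold higher in the graft. CDK1, the kinase partner of CCNB1, had 6.79 in the graft, 1.34 and 0 in the distended veins, and 4.00 and 0 in the control veins. KIF23 had 6.06 in the graft, 3.34 and 7.15 in the distended veins, and 2.00 and 0 in the control veins, and was thus highest in distended dog 2, on 2 UMIs. BUB1, with 29 graft UMIs, had 2.66 in the graft, none in the distended veins, and 2.00 and 0 in the control veins.

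DIAPH3 stood apart from the other mitotic genes in size, with 210.4 CPM in the graft, 34.7 and 107 in the distended veins, and 16.0 and 14.7 in the control veins. Its pooled ratio of graft to control was 13.6 (counting interval 7.92 to 25.5). In all, 13 of 15 mitotic genes stood above both controls in the graft (background 48.5%), 13 of 15 in distended dog 1 (32.2%) and 7 of 15 in distended dog 2 (37.7%). Graft was above distended dog 1 for 9 of 15 (58.4%) and below it for 6 of 15 (41.6%), shares close to those of all genes.

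Set against the S phase transcripts of the same library, the proportion of mitotic transcripts in the graft depended on DIAPH3. With it there were 21.3 mitotic UMIs for every 100 S phase UMIs in the graft, 49.7 and 11.2 in the distended veins, and 31.1 and 17.7 in the control veins. Without DIAPH3 there were 8.61 mitotic UMIs for every 100 S phase UMIs in the graft, 42.7 and 4.98 in the distended veins, and 25.2 and 12.5 in the control veins. Either way distended dog 1 had the highest proportion and distended dog 2 the lowest. Nuclei with UMIs of at least 3 mitotic genes, DIAPH3 left aside, numbered 96 in the graft, 13 and 0 in the distended veins, and 3 and 0 in the control veins. All 96 grafted nuclei of this kind also had UMIs of at least 3 S phase genes, and together they held 810 mitotic and 5699 S phase UMIs. Of the 13 nuclei of distended dog 1, 7 had UMIs of at least 3 S phase genes. Together the 13 held 202 mitotic and 76 S phase UMIs, and they carried 62.9% of all mitotic UMIs of that library outside DIAPH3. The nuclei were chosen by their mitotic UMIs and their depth was not matched, with a median of 8281 UMIs for the 96 grafted nuclei and 1249 for the 13 distended ones, so their proportions of mitotic to S phase UMIs are not compared.

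The 3 nuclei of distended dog 1 with most mitotic UMIs outside DIAPH3 were fibroblast-like. One held 55 mitotic and 2 S phase UMIs among 1800, of which 15 were MKI67 and 12 CENPF, and another held 38 mitotic and 0 S phase UMIs among 1359. The third held 33 mitotic UMIs and 8 S phase UMIs of 6 genes, among 1249. The grafted nucleus with most mitotic UMIs held 72 of them beside 313 S phase UMIs, among 55622 UMIs in all.

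**Figure D3:**
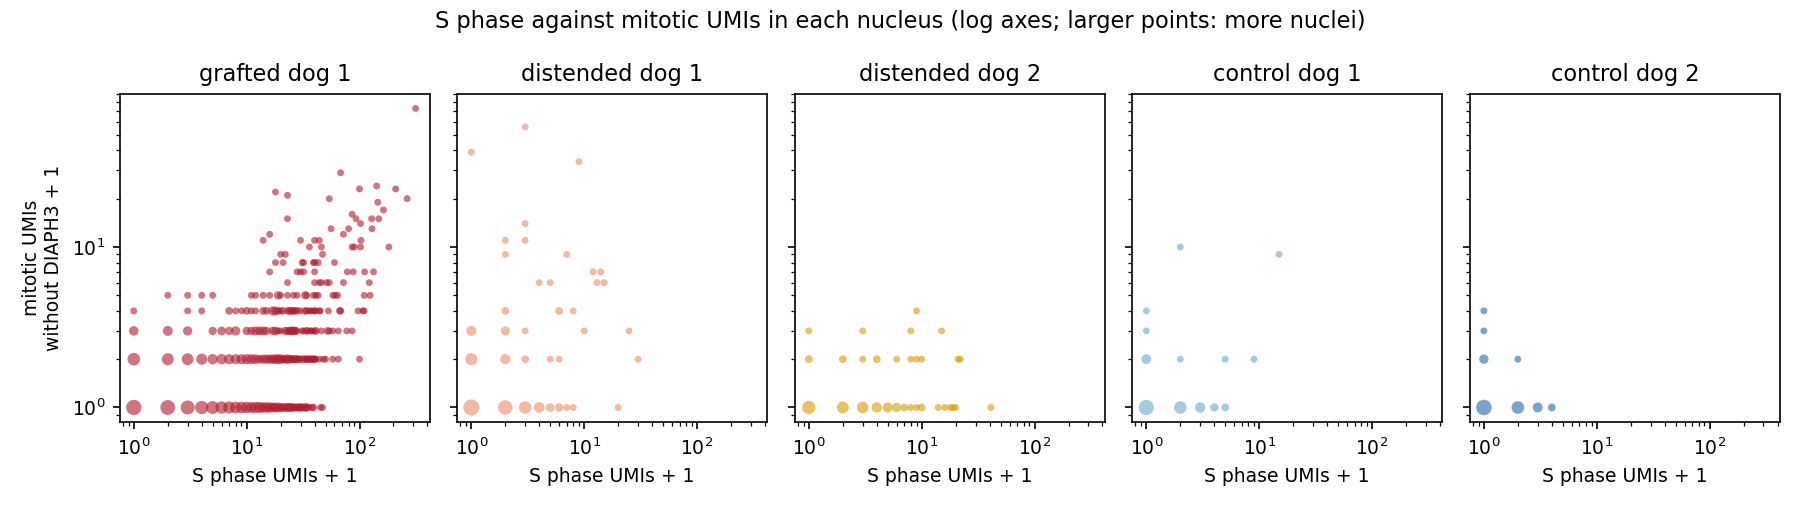
S phase UMIs + 1 (x axis) against mitotic UMIs + 1 without DIAPH3 (y axis) of each nucleus on log axes, in 1 panel per library; nuclei with the same pair of values share a point, drawn larger for more nuclei. Grafted nuclei spread along the S phase axis up to 313 S phase UMIs. In distended dog 1 the nuclei with most mitotic UMIs include 1 with 55 mitotic and 2 S phase UMIs and 1 with 33 and 8. Depth per nucleus is not matched between the panels.

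Nuclei with UMIs of 5 or more S phase genes numbered 694 of 2705 in the graft (25.7%). They numbered 14 of 2108 and 21 of 241 in the distended veins, and 2 of 765 and 0 of 1036 in the control veins. Of the 694, 439 were endothelial-like and 105 fibroblast-like, 318 (45.8%) had no mitotic UMI and 13.8% had UMIs of 3 or more mitotic genes, DIAPH3 left aside. The MCM ring gave a like picture: UMIs of at least 3 of the subunits MCM2 to MCM6 were found in 265 grafted nuclei, in 1 and 3 distended nuclei and in 0 and 0 control nuclei. MKI67 was seen in 18 of those 265, and all 5 subunits were seen in 55. Depth was not matched for any of these counts, at a median of 2350 UMIs per nucleus in the graft against 274 to 545.5 elsewhere. They therefore do not by themselves compare the libraries.

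Because grafted nuclei held far more UMIs each, shares were compared after every nucleus had been thinned to 300 UMIs. At that depth UMIs of at least 2 S phase genes were found in 7.66% of 2703 grafted nuclei (exact binomial interval 6.68 to 8.73), in 0.933% of 1930 and 12.1% of 223 distended nuclei (8.13 to 17.1 for dog 2), and in 0.560% of 536 and 0.444% of 450 control nuclei. Too shallow for this were 2 grafted, 178 and 18 distended, and 229 and 586 control nuclei. Without thinning the shares were 46.1% in the graft, 3.42% and 32.4% in the distended veins, and 2.22% and 0.483% in the control veins. The grafted share exceeded those of distended dog 1 and of both controls in thinned nuclei too, and that of distended dog 2 had an interval overlapping the graft. The share for 2 or more mitotic genes, DIAPH3 included, was 0.629% in the graft, 0.829% and 0% in the distended veins, and 0.373% and 0% in the control veins. A count of 0 allows a share of up to 1.35% in distended dog 2 and 0.667% in control dog 2, so mitotic shares could not be told apart at this depth.

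Nuclei were grouped by clusters built without the genes of the cell cycle, and clusters were called endothelial-like, fibroblast-like and so on from marker genes. In the graft S phase transcripts were most abundant in endothelial-like nuclei, of which 954 (median 3934 UMIs, 953 of them in cluster 2) held 2171 S phase CPM (2128 to 2216). Endothelial-like nuclei of distended vein held 326 (276 to 383; 528 nuclei, 434 in cluster 8) in dog 1 and 2161 (1839 to 2523; 41 nuclei, 36 in cluster 2) in dog 2. Those of control vein held 270.2 (224 to 323; 633 nuclei, 538 in cluster 12) and 177 (119 to 252; 457 nuclei, 435 in cluster 8). Graft over control was thus 8.04 (counting interval 6.72 to 9.69) for control dog 1 and 12.3 (8.61 to 18.2) for control dog 2. Graft over distended dog 1 was 6.66 (5.67 to 7.88), and graft over distended dog 2 was 1.00 (0.859 to 1.18). The endothelial-like nuclei of distended dog 1 differed from those of its own control by 1.21 times (0.944 to 1.54), an interval that includes no difference. In dog 2 the same ratio was 12.2 (8.24 to 18.7), from 41 nuclei. Grafted and control endothelial-like nuclei lay mostly in different clusters.

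Fibroblast-like nuclei of the graft held 1113 S phase CPM (1064 to 1163; 824 nuclei, 820 in cluster 1). Those of the distended veins held 537 (487 to 592; 1210 nuclei, 562 in cluster 14 and 538 in cluster 10) and 682 (19 UMIs in 51 nuclei, 42 in cluster 1). Those of control vein held 859.6 (346 to 1771; 7 UMIs in 46 nuclei) and 338 (237 to 468; 386 nuclei, 281 in cluster 7). Graft over distended dog 1 was 2.07 (1.86 to 2.31) and graft over control dog 2 was 3.29 (2.37 to 4.71), whereas against the few nuclei of control dog 1 the ratio of 1.29 had an interval from 0.626 to 3.22. Within the graft, endothelial-like nuclei exceeded fibroblast-like nuclei 1.95 times (1.86 to 2.05).

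Mature neutrophils do not divide, and neutrophil-like nuclei are used here as a class for comparison. They did not lack these transcripts, so ratios to them are not ratios to a background. The 79 grafted neutrophil-like nuclei (median 782 UMIs) held 669 S phase CPM, more than the endothelial-like nuclei of either control vein. PCNA made 30 of their 60 UMIs, at 335 CPM against 50.1 in grafted endothelial-like nuclei. Outside PCNA, a split chosen after its value was seen, the grafted neutrophil-like nuclei also held 335. Without PCNA the neutrophil-like nuclei of control dog 2 held 415, on 5 UMIs. Grafted endothelial-like nuclei stood 3.25 times above grafted neutrophil-like nuclei (2.52 to 4.26), or 6.34 times (4.44 to 9.40) without PCNA. Grafted fibroblast-like nuclei stood 1.66 times above them (1.29 to 2.19). Of the 26 S phase genes, 24 were higher in grafted endothelial-like than in grafted neutrophil-like nuclei. The share over all genes was not computed for this comparison, and outside PCNA the neutrophil-like side rests on 30 UMIs in all. After thinning to 300 UMIs, 13.4% of endothelial-like, 5.70% of fibroblast-like and 0 of 78 neutrophil-like grafted nuclei had UMIs of 2 or more S phase genes, and the last count allows a share of up to 3.85%. Unthinned, the shares were 64.6% of endothelial-like, 37.1% of fibroblast-like and 13.9% of neutrophil-like nuclei, at a median depth of 3934 UMIs in endothelial-like and 782 in neutrophil-like nuclei.

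Other grafted nuclei ranged widely. An unnamed cluster led by RPL15 and NME1, cluster 0, had 245 grafted nuclei (median 4776 UMIs) and 1672 S phase CPM. It held 65.6% of the grafted PCNA UMIs, 68.3% of TYMS, 51.0% of RRM2 and 52.8% of MCM2. Endothelial-like nuclei held 66.6% of DTL, 69.1% of BRIP1, 72.1% of FANCI and 74.8% of DIAPH3. Other genes were near even, such as MCM6 with 42.3% in endothelial-like nuclei and 43.8% in cluster 0. Levels were also compared among endothelial-like nuclei, cluster 0 and fibroblast-like nuclei of the graft. The highest of the 3 was endothelial-like for 15 of 26 S phase genes, cluster 0 for 11 and fibroblast-like for 0. The share over all genes was not computed for these counts. Macrophage/monocyte-like nuclei of the graft held 382 CPM (262 nuclei) and smooth muscle-like nuclei 596 (35 nuclei). Inside the mixed leukocyte cluster, 129 grafted nuclei lay in a subcluster with 16 endothelial markers and were not counted as endothelial-like above. With a small unnamed subcluster they made 146 nuclei, at 1.64 times the S phase level of grafted neutrophil-like nuclei (1.26 to 2.17), against 3.25 for the endothelial-like class. In distended dog 2, the 108 nuclei of an unnamed cluster led by globin genes, in which 9 endothelial and 4 erythroid markers counted as higher than elsewhere, held 2748 CPM (2355 to 3188), beside 2161 in its endothelial-like and 682 in its fibroblast-like nuclei. Inside the clusters dominated by the graft the nuclei of distended dog 2 held 1304 S phase CPM and outside them 2651. The source of either level was not tested.

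**Figure D4:**
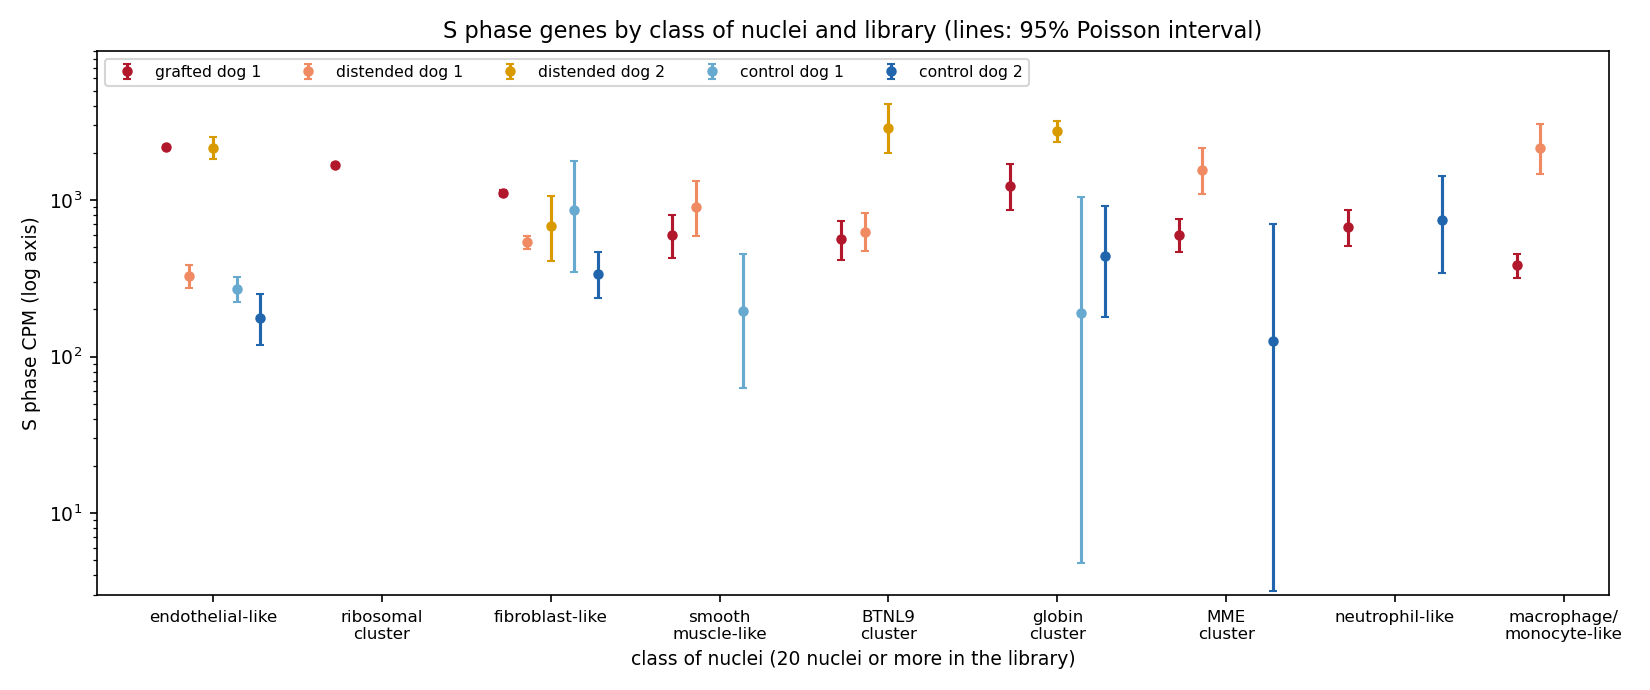
S phase CPM (log axis) by cell class or unnamed cluster (cluster 0 as ribosomal cluster, the others by a leading gene) and library, with exact 95% Poisson intervals. Endothelial-like nuclei of the graft and of distended dog 2 stand at 2171 and 2161, those of distended dog 1 at 326 and of the controls at 270.2 and 177, and grafted neutrophil-like nuclei at 669.

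Within endothelial-like nuclei, 10 S phase genes and DIAPH3 rose in the graft. The edgeR quasi-likelihood test on counts summed per library called 458 of 10389 genes (4.41%) for grafted against control endothelial-like nuclei, and among them were 10 of the 25 tested S phase genes and 1 of 6 tested mitotic genes, all 11 higher in the graft. The 458 genes were 257 higher and 201 lower, and the split was 213 and 108 without the dominant features in the fit and 38 and 88 with DESeq2. DTL rose to 164 CPM in the graft, beside 8.69 and 135 in the distended veins, against 2.22 and 0 in the control veins (adjusted p = 4.24e-04, pooled ratio to control 102, counting interval 18.3 to 4041). BRIP1 rose to 125 in the graft, with 17.4 and 122 in the distended veins, against 0 and 0 in the control veins, at least 25.9-fold (edgeR adjusted p = 3.22e-04). MCM10 reached 97.4 in the graft, with 13.04 and 54.0 in the distended veins, against 0 and 5.89 in the control veins (edgeR adjusted p = 0.00451). For DTL, BRIP1 and MCM10 the graft was the highest library and distended dog 2 came next.

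The chromatin genes had enough control transcripts for a fitted fold. EZH2 stood at 179.5 CPM in grafted endothelial-like nuclei, 32.6 and 135 in distended ones and 15.5 and 5.89 in control ones, a log2 difference of 3.73 from control (SE 0.92, edgeR adjusted p = 0.00703). ATAD2 stood at 241 in the graft, 34.8 and 203 in the distended veins, and 26.6 and 29.4 in the control veins, a log2 difference of 2.95 (SE 0.85, edgeR adjusted p = 0.027). Both had the graft above all other libraries, and distended dog 1 was above both controls. HELLS stood at 121 in the graft, 6.52 and 94.5 in the distended veins, and 4.43 and 5.89 in the control veins (edgeR adjusted p = 0.00791). MCM3 stood at 90.9 in the graft, 6.52 and 135 in the distended veins, and 6.65 and 0 in the control veins (edgeR adjusted p = 0.0192). BRCA1 stood at 67.7 in the graft, 8.69 and 108 in the distended veins, and 0 and 11.8 in the control veins (edgeR adjusted p = 0.0475). MCM3 and BRCA1 were higher in distended dog 2 than in the graft. CDC6 had 51.7 in the graft, 4.35 and 40.5 in the distended veins, and 2.22 and 0 in the control veins (edgeR adjusted p = 0.0485, and 0.0679 with the dog as a block, under which the other 10 calls held). CLSPN had 45.0 in the graft, 0 and 40.5 in the distended veins, and 0 and 0 in the control veins, at least 9.32-fold above control (edgeR adjusted p = 0.0372).

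DIAPH3 was the mitotic gene that passed. It rose to 398 CPM in grafted endothelial-like nuclei, beside 13.04 and 94.5 in distended ones, against 15.5 and 5.89 in control ones, a log2 difference of 4.87 from control (SE 0.92, edgeR adjusted p = 3.32e-04). DIAPH3 was also the only gene of both sets called between grafted and distended endothelial-like nuclei, where 156 of 10389 genes (1.5%) passed, at a log2 difference of 3.41 (SE 0.89, edgeR adjusted p = 0.0266). That call was lost with the dog as a block (adjusted p = 0.0736), with DESeq2 (adjusted p = 0.464) and without distended dog 1 (adjusted p = 1.0), and over 13 alternatives its adjusted p ran from 0.000831 to 1.0. MKI67 in endothelial-like nuclei had 23 UMIs in the graft (5.33 CPM), 6 and 0 in the distended veins (13.04 and 0 CPM), and 3 and 0 in the control veins (6.65 and 0 CPM). TOP2A had 25.1 CPM in the graft, 4.35 and 0 in the distended veins, and 2.22 and 0 in the control veins. MKI67 was thus no higher in the graft than in the same dog's other veins, while TOP2A was highest in the graft. Mitotic genes without DIAPH3 summed to 186 CPM in grafted, 86.9 and 54.0 in distended, and 46.5 and 23.6 in control endothelial-like nuclei, 2.14 times distended dog 1 (counting interval 1.56 to 3.03).

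PCNA, MCM4 and BRCA2, which had not passed in whole vein, did not pass in endothelial-like nuclei either. PCNA had 50.1 CPM in grafted, 4.35 and 81.0 in distended, and 26.6 and 17.7 in control endothelial-like nuclei, a log2 difference of 0.95 from control (SE 0.97, edgeR adjusted p = 0.691). MCM4 had 145 in the graft, 28.3 and 149 in the distended veins, and 24.4 and 11.8 in the control veins (log2 difference 2.72, SE 0.89, edgeR adjusted p = 0.0589, past the threshold in 4 of 13 alternatives). BRCA2 had 172 in the graft, 60.9 and 311 in the distended veins, and 26.6 and 41.2 in the control veins (log2 difference 2.22, SE 0.85, edgeR adjusted p = 0.124). The median log2 difference from control was 3.47 over the tested S phase genes (3.29 with bounds) against 0.10 over all genes, and only 6 of the 15 mitotic genes had passed the filter on low counts. The 25 S phase genes with at least 30 UMIs in these nuclei all stood above both controls in the graft (background 48.4%), 24 of 25 did in distended dog 2 (39.7%) and 11 of 25 in distended dog 1 (27.8%). Distended against control endothelial-like nuclei gave 5 called genes of 10389 (0.0481%), none of them an S phase or mitotic gene, with 8 S phase genes higher in distended vein at an unadjusted p under 0.05 (1.27% of all genes). This count was 14, of which 3 passed the adjusted threshold, without distended dog 1, and 1 without distended dog 2. The direction of the 11 called genes held in every alternative tried, but the number called depended on the setting: DESeq2 called 3 of the S phase and mitotic genes (DTL, BRIP1 and DIAPH3), coarser clusters at resolution 0.4 called 0, leaving out control dog 1 called 3 and control dog 2 called 5, and leaving out either distended vein called 14. The call count over all genes was 207 with the first dog's control left out and 232 with the second's, and it was 827 and 870 with the distended vein of the first or second dog left out.

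**Figure D5:**
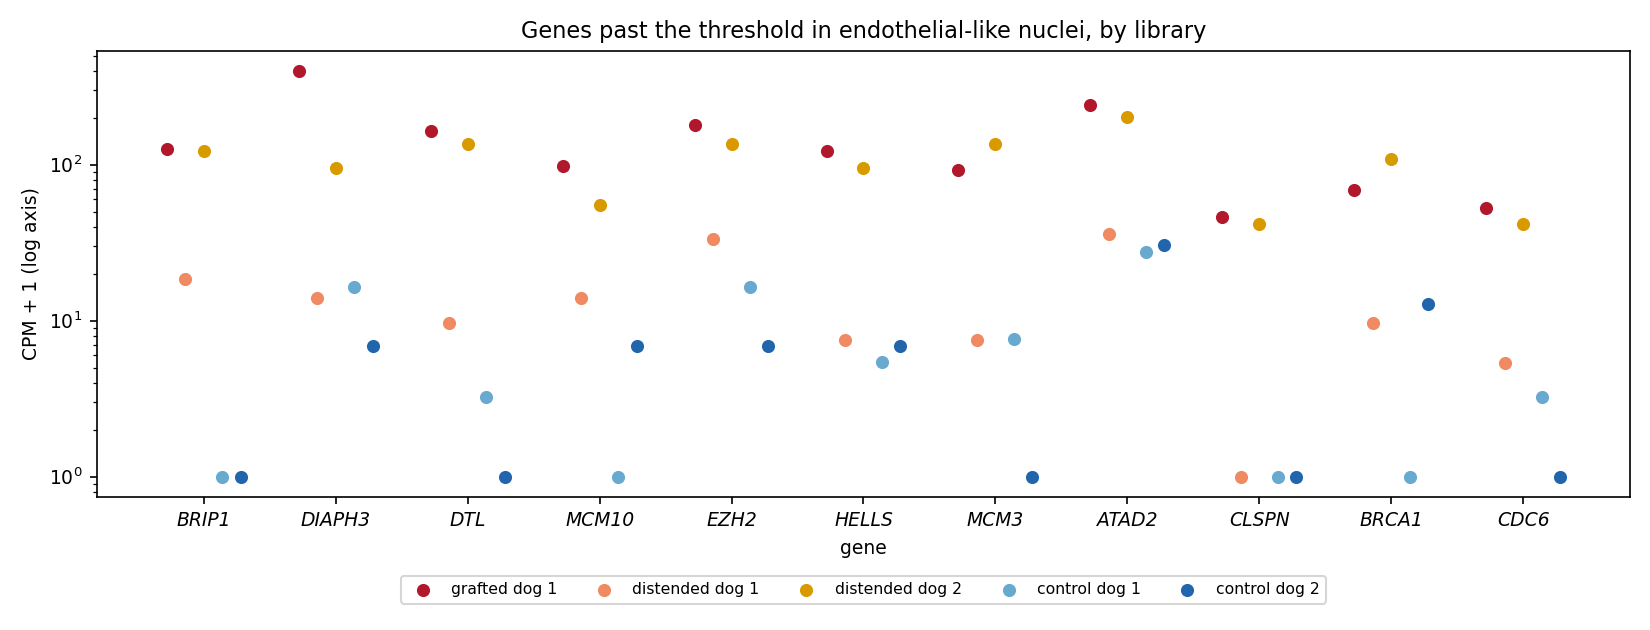
CPM + 1 (log axis) in endothelial-like nuclei of each library for the 11 genes called between graft and control, 1 point per library. For DTL the graft stands at 164 and distended dog 2 at 135, against 8.69 in distended dog 1 and 2.22 and 0 in the controls, and for 9 of the 11 genes the graft is the highest library.

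Fibroblast-like nuclei also had most tested S phase genes higher in the graft, but gave no S phase or mitotic call against control. None of their 19 tested S phase and mitotic genes passed between graft and control with edgeR, where 119 of 7269 genes did (1.64%; 0 with the dog as a block, and 3 without control dog 2), and 1 S phase gene (HELLS) was higher at an unadjusted p under 0.05 (4.31% of all genes). The fitted difference was positive for 13 of 14 tested S phase genes. Their median was 2.21 on the log2 scale (0.98 with bounds), against 0.30 over all genes. Of the 5 tested mitotic genes 2 were positive and 3 negative, with a median of -0.55. With DESeq2's size factors in place of TMM the median of all genes was 0.67. The split of called genes was then 43 higher and 87 lower, against 24 higher and 95 lower with TMM. HELLS had 74.5 CPM in grafted, 15.7 and 35.9 in distended, and 0 and 0 in control fibroblast-like nuclei. DTL had 57.7 in the graft, 1.31 and 0 in the distended veins, and no UMI in the controls. EZH2 had 99.2 in the graft, 9.17 and 108 in the distended veins, and 0 and 37.6 in the control veins. DTL, EZH2 and HELLS were thus higher in the graft than in distended dog 1.

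Among mitotic genes in fibroblast-like nuclei, CENPF fell in the graft against the distended veins, with 3 UMIs (1.68 CPM) in the graft and 44 and 0 (57.7 and 0 CPM) in the distended veins, beside 4 and 0 UMIs in the control veins. Its log2 difference was -4.87 (SE 1.47, edgeR adjusted p = 0.0414), among 179 of 7269 genes called (2.46%), 65 higher and 114 lower, or 67 higher and 70 lower with DESeq2's size factors. That call was lost with the dog as a block (adjusted p = 0.178) and in 4 other alternatives, among them control dog 2 left out, with the direction the same in each and an adjusted p between 3.21e-08 and 0.18 over 11 alternatives. MKI67 had 4 UMIs (2.24 CPM) in the graft, 50 and 0 (65.5 and 0 CPM) in the distended veins, and 2 and 0 in the control veins, a log2 difference of -4.67 from distended vein (SE 1.45, edgeR adjusted p = 0.0502), which passed in 5 of 11 alternatives. CENPE, with 20.7 CPM in the graft, 59.0 and 35.9 in the distended veins, and 0 and 28.2 in the control veins, and AURKA, with 4.48 in the graft, 22.3 and 0 in the distended veins and none in the controls, were also highest in a distended vein. These values came nearly all from distended dog 1, as distended dog 2 had 51 fibroblast-like nuclei, and within distended dog 1 from few nuclei: 3 of its 1210 fibroblast-like nuclei held 29 of the 44 CENPF UMIs and 29 of the 50 MKI67 UMIs. Summed without DIAPH3, mitotic genes held 114 CPM in the graft and 312 and 71.8 in the distended veins, beside 1105 (9 UMIs) and 28.2 (3 UMIs) in the control veins, a ratio of 0.366 of graft to distended dog 1, or 0.662 without the 3 nuclei of each library with most mitotic UMIs.

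Further genes of the cycle were read from lists of other replication genes, other mitotic genes, G1 regulators and inhibitors of the cycle. In endothelial-like nuclei of graft against control, edgeR called 3 of 50 tested replication genes, 4 of 38 mitotic genes, 2 of 14 G1 regulators and 1 of 23 inhibitors, beside 4.41% of all genes. WDHD1, which anchors polymerase alpha at the fork, had a log2 difference of 2.62 (SE 0.83, adjusted p = 0.0499 with edgeR) that was lost in 8 of 13 alternatives, the dog as a block among them (adjusted p = 0.0746). CENPK, a kinetochore subunit, differed by 3.26 (SE 0.87, edgeR adjusted p = 0.0142) and NCAPG2, a condensin subunit, by 3.09 (SE 0.89, edgeR adjusted p = 0.0259). E2F3, a transcription factor that switches on replication genes, differed by 4.06 (SE 0.97, edgeR adjusted p = 0.005). In whole vein E2F3 held 162 CPM in the graft, 17.4 and 136 in the distended veins, and 14.01 and 32.4 in the control veins, so that it was high in the graft and in distended dog 2. Of the abundant G1 genes, CDK6 (log2 difference 0.91) and CDK4 (0.15) did not pass, and 2 called genes, named after their values were seen, were lower in the graft, CCND2, the D-type cyclin (-3.03, edgeR adjusted p = 0.0463, and 0.0809 with the dog as a block), and TOB2, an antiproliferative gene (-3.70, edgeR adjusted p = 0.0192). The medians were 2.01 over the replication genes (2.01 with bounds), 2.72 over the mitotic genes (2.35 with bounds), 0.78 over the G1 regulators and 0.37 over the inhibitors. Among the most abundant inhibitors, FOXO3 (0.04), DYRK1A (0.37) and GADD45A (1.44, edgeR adjusted p = 0.366) did not pass, nor did BTG1 (-2.77, edgeR adjusted p = 0.0784).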

How the data were processed

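Nuclei of 5 snap-frozen vein segments were profiled with 10x 3' single-nucleus RNA-seq. What the authors deposited are raw UMI counts for each barcode. Their counting tool was Cell Ranger 7.0.0, as both file headers and processing notes of the submitters state. A genome build was not found in these sources. Genes and lists were chosen with earlier results of these data known. All S phase and mitotic genes present are accounted for, and of every other list at most the 4 genes with most UMIs are named by rule.

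Of 7391 barcodes, 536 with under 100 genes were removed. The 4 dominant features (no entry in the RefSeq gene table) and 24 unassigned features stayed out of CPM totals, which ranged from 279555 UMIs in distended dog 2 to 10899093 in the graft. Clusters were built with scanpy 1.11.5 (2000 variable genes, 20 components, 15 neighbours, Leiden resolution 0.8) without the dominant features and without 163 cycle genes, since clusters built with them can follow those genes. A cluster was named from at least 3 markers. Scrublet marked 20 nuclei (0.292%) as doublets, too few for the caller to have worked, so doublets stayed in. Libraries shared 0 to 2 barcodes.

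Counts were summed per library, for all nuclei or for a class with at least 20 nuclei, and tested with edgeR 4.0.16 (TMM, filterByExpr, glmQLFit, group means over all 5 libraries, dominant features kept) in R 4.3.3, at a Benjamini-Hochberg adjusted p of 0.05 over all genes; DESeq2 1.42.0 was an alternative. P-values measure the spread between veins of 2 dogs, and the graft is assumed to vary like the other groups. The dog pairs the samples per the labels; same-dog deviations of distended and control vein correlated at -0.330 over 14883 genes. With a control count of 0 a fold is a lower bound from a floor of 3 UMIs over the group, and with 1 to 3 UMIs the pooled ratio is given. Poisson and Clopper-Pearson 95% intervals, like the floors, reflect counting error alone. The edgeR step was tested on simulated data. Sequences of the genes were not used here.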

Additional observations from a re-analysis of the deposited data

How the results depend on the processing

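The graft has 1 library, and most S phase genes have few control UMIs, which limits every fold. With 0 genes called in whole vein, distended against control gave 11 without a low-count filter, 1 with DESeq2, 0 with the dog as a replicate block and 0 to 219 with a library left out. Grafted against control gave 287, 116, 0 and 0 to 646 in the same order, and 46 without cluster 0; grafted against distended gave 144, 32, 0 and 0 to 432, and 3 without cluster 0. The 458 endothelial-like calls became 126 with DESeq2, 0 at resolution 0.4 and 207 to 870 with a library left out, and the 119 fibroblast-like calls became 11 unfiltered, 0 with the block, 50 with DESeq2, 37 without the dominant features in the fit and 3 to 224 with a library left out. Pairing the dogs crosswise, added after seeing the data, gave 9, 1351, 594, 671 and 257 calls in these comparisons, and the 1351 for the graft against control in whole vein held 16 of the 39 tested S phase and mitotic genes.

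The S phase ratio of distended to control (4.02) was 8.73 with the dominant features kept in the total, 1.86 within dog 1 and 1.81 to 6.24 with a library left out. That of graft to control (5.99) was 18.2, 6.13 and 5.85 to 6.13 in the same order, and 6.21 in nuclei with at least 300 genes. The mitotic ratio of distended to control (3.30) was 6.91 with the dominant features kept, 5.11 without the clusters dominated by the graft and 2.63 to 4.41 with a library left out. That of graft to control (5.26) was 16.4 with them kept, 2.76 without DIAPH3 and 4.198 to 7.05 with a library left out.

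In thinned nuclei the S phase share was 6.02 percentage points higher in distended than in control vein, and 16.3 at 500 UMIs, 16.5 unthinned, 0.373 within dog 1 and 0.431 to 11.6 with a library left out. For the graft it was 7.16 points, and 4.18 at 200 UMIs, 14.1 at 500, 44.7 unthinned, 1.96 for at least 3 genes and 7.10 to 7.21 with a library left out. The mitotic difference of distended vein, 0.228 points, was 1.03 at 500 UMIs, 2.06 unthinned and -0.187 to 0.642 with a library left out, reversed without distended dog 1. The mitotic difference of the graft, 0.442 points, was 1.08 at 500 UMIs, 11.8 unthinned, 0.0177 for at least 3 genes, 0.0354 without DIAPH3 and 0.256 to 0.629 with a library left out. In endothelial-like nuclei the uncalled differences of CDK4 (0.15) turned to -0.23 with the block, were 3.79 at resolution 0.4 and ran from -0.12 to 0.14 with a library left out, those of FOXO3 (0.04) turned to -0.37 with the block, -0.60 at resolution 0.4 and -0.0125 at resolution 1.5 and ran from -0.84 to 2.91 with a library left out, and that of DYRK1A (0.37) turned to -0.15 at resolution 0.4. With the block, the S phase and mitotic calls lost were those named above, and none changed direction. The cause of these moves was not tested.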
